A study of Mus musculus with 17 samples.

Results

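Sphingosine 1-phosphate and ceramide 1-phosphate are lipid messengers made by phosphorylating the products of ceramide breakdown or ceramide itself. The 9 genes described here make, remove, export, carry or sense them: the kinases Sphk1, Sphk2 and Cerk, the phosphatase Sgpp1, the lyase Sgpl1, the exporter Spns2, the plasma carrier Apom and the receptors S1pr1 and S1pr2. They were taken by symbol, and all 9 were found among 49143 gene symbols. All 9 passed the filter on low counts in both experiments.

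Sphingosine kinases phosphorylate sphingosine, and ceramide kinase phosphorylates ceramide. Sphingosine 1-phosphate is either turned back to sphingosine by phosphatases or cleaved irreversibly by the lyase. In liver, hepatocytes secrete apolipoprotein M, which carries sphingosine 1-phosphate on high-density lipoprotein, endothelial cells sense it through the receptor encoded by S1pr1, and the receptor encoded by S1pr2 in hepatocytes also responds to conjugated bile acids.

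RNA was sequenced in mouse liver and in hepatocytes isolated with collagenase. The liver experiment held 4 libraries labelled SMSrKO, from mice with a lesion in Samd8, and 4 labelled WT, all on a high-fat diet with fructose in the drinking water for 16 weeks. The hepatocyte experiment held 3 libraries labelled tKO (Sms1/Sms2/Smsr-tKO), 3 labelled dKO (Sms1/Sms2-dKO) and 3 labelled WT, from mice aged 2 months. Sms1, Sms2 and Smsr are the genes Sgms1, Sgms2 and Samd8, which encode sphingomyelin synthases and the ceramide phosphoethanolamine synthase SMSr. Which cells carried each deletion, and the promoter of any Cre, are not stated in the labels, nor are the strain, the sex and the age of the mice used for liver. The tKO and dKO groups share the Sgms1 and Sgms2 lesions, and both were compared with the same 3 WT libraries.

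Liver libraries held 24391627 to 47351126 counts, and hepatocyte libraries held 9221488 to 9665309 expected counts. The labels give 3 mice per hepatocyte group but do not say that the liver libraries came from separate animals, so liver p-values cover the scatter of these libraries, whose source could be technical. The RNA of the targeted genes did not follow the labels. Only Sgms2 was lower where targeted, and it kept 25.5 to 27.6 FPKM in tKO and 23.1 to 28.6 FPKM in dKO, against 30.3 to 33.1 FPKM in WT hepatocytes. Samd8 had 13.6 to 17.6 TPM in liver labelled SMSrKO and 10.5 to 16.1 TPM in WT liver (log2 fold change 0.35, edgeR adjusted p = 0.218). In hepatocytes Samd8 was higher in tKO than in WT (log2 fold change 0.53, edgeR adjusted p = 5.41e-13), Sgms1 was higher in tKO (0.24, 0.00178) and in dKO (0.86, 5.57e-21), and Sgms2 was lower in tKO and in dKO by the same log2 fold change of -0.29. Samd8 was also higher in dKO, where the label does not name it (0.23, 0.000974). Sgms1 was lower in tKO than in dKO (-0.62, 1.7e-14), though both labels name it. Totals over a gene do not show whether a deleted exon is missing, so the groups below are named as labelled. The extract protocol names subcutaneous fat where the tissue label says liver. The adipocyte genes Adipoq, Lep, Plin1, Retn and Cfd summed to 0.307 to 1.99 CPM (counts scaled to the library total) in SMSrKO and 0.323 to 2.59 CPM in WT, with Lep at 0 in all 8 libraries, while 10 hepatocyte genes summed to 88200 to 101000 CPM in SMSrKO and 63900 to 78300 CPM in WT. In liver, WT replicate 1 stood apart from the other WT libraries, with a chi-square per gene of 168 to 185 against them and of 26.1 to 56.0 among them. It was also the deepest library, at 47351126 counts, and where libraries differ beyond counting noise this chi-square grows with depth.

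Levels per transcript length spanned a wide range among the 9 genes, and their order differed between liver and isolated hepatocytes. Apom was the highest of the 9 in each of the 5 groups, at 290 ± 26.6 TPM in SMSrKO and 208 ± 67.9 TPM in WT liver (mean ± SD, n = 4 each), and at 106 ± 6.16, 112 ± 6.42 and 130 ± 4.48 FPKM in tKO, dKO and WT hepatocytes (n = 3 each). TPM and FPKM are both relative to transcript length and library total. The 2 experiments were normalised separately and used different lengths for some genes, so levels are set side by side here without a test between them. In liver, S1pr1, Sgpp1, Sgpl1, Sphk2 and Spns2 formed a middle range of 21.8 to 46.2 TPM by group mean, followed by Cerk, S1pr2 and Sphk1. Within SMSrKO liver the libraries of S1pr1 and Sgpp1 overlapped, as did those of Sgpl1 and Sphk2, and within WT liver those of S1pr1 and Sphk2, of Sphk2 and Sgpl1 and of Sgpl1 and Spns2 overlapped. All other neighbours in the order were apart in every library.

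In hepatocytes Sgpl1 came next after Apom, at 50.9 to 62.7 FPKM by group mean, followed by S1pr2, Sgpp1, S1pr1 and Sphk2 between 7.31 and 17.8 FPKM. Cerk, Sphk1 and Spns2 were the 3 lowest. Neighbours whose libraries overlapped were Sgpp1 and Sphk2 in tKO, S1pr1 and S1pr2 in dKO, and Cerk and Sphk1 in tKO, dKO and WT. The place of S1pr1 differed between the groups. It ranked below Sphk2 in tKO, was level with S1pr2 in dKO and lay between Sgpp1 and Sphk2 in WT.

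**Figure D1:**
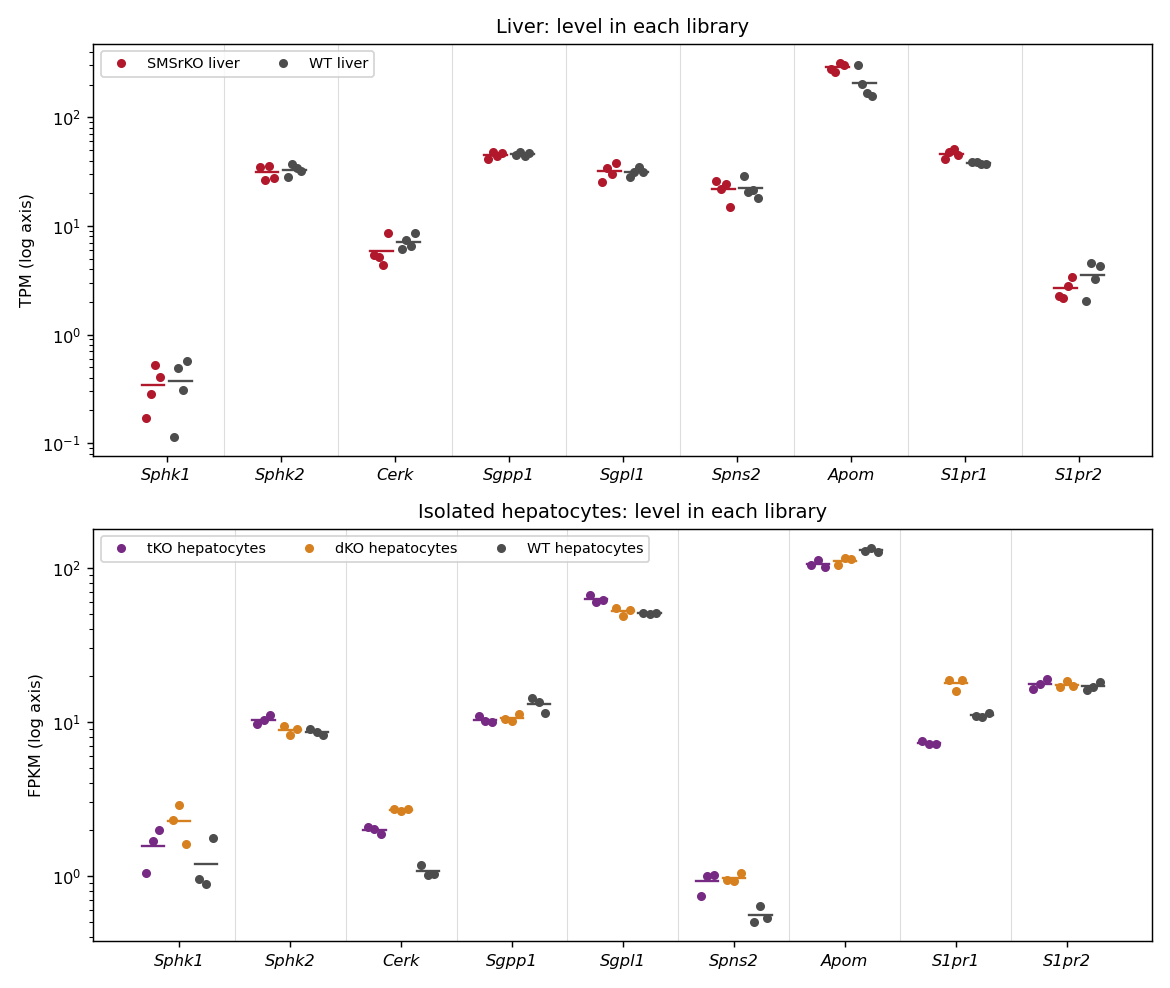
Level of each gene in each library on log axes, TPM in liver (upper panel) and FPKM in isolated hepatocytes (lower panel); points are libraries, bars are group means, and colours give the group. Apom is the highest in all 5 groups, Sphk1 is the lowest in liver and Spns2 the lowest in hepatocytes, and S1pr1 and Cerk part the 3 hepatocyte groups.

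Spns2 and S1pr2 stood at different places in the 2 experiments. Spns2 was above 86.8% of the genes detected in SMSrKO liver and above 86.6% in WT liver, against 29.5%, 29.9% and 24.8% in tKO, dKO and WT hepatocytes. S1pr2 was above 60.8% and 63.4% of detected genes in SMSrKO and WT liver, and above 72.7%, 73.1% and 72.0% in tKO, dKO and WT hepatocytes. Detected means a group mean above 0, which held for 27504 and 27739 genes in SMSrKO and WT liver and for 14256 to 14859 genes in hepatocyte groups. The lengths behind these levels also differ. S1pr2 was given 7971 bases in liver and 2815 in hepatocytes, and Spns2 4083 and 2909 to 3077 bases, so a longer length lowers the liver level of both. Diet, age, kit and counting also differ between the experiments and cannot be told apart from the presence of other cell types in whole liver.

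None of the 9 genes was called in liver labelled SMSrKO against WT. By edgeR's quasi-likelihood test with Benjamini-Hochberg adjustment at 0.05, 0 of 9 were called, where 0.234% of the 15820 genes tested were called (37 genes). At an unadjusted p under 0.05 there were 2 of the 9, S1pr1 and Apom, against 13.1% of all genes. DESeq2 called 1 of the 9 (S1pr1), where it called 2.42% of all genes, and limma on log2 TPM called 0, where it called 0.190%. The median log2 fold change of the 9 was 0.01, against -0.01 over all genes tested, and the median absolute log2 fold change was 0.07, against 0.16.

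In hepatocytes labelled dKO, transcripts of ceramide kinase, sphingosine kinase 1, the exporter and the receptor S1pr1 were higher than in WT, and those of the phosphatase and the carrier were lower. By edgeR's quasi-likelihood test 4 of 9 were called higher (Cerk, S1pr1, Sphk1, Spns2) and 2 lower (Sgpp1, Apom), where 44.0% of the 11471 genes tested were called, 24.0% higher and 20.0% lower. In hepatocytes labelled tKO against WT, 4 were called higher (Cerk, Spns2, Sgpl1, Sphk2) and 3 lower (S1pr1, Sgpp1, Apom), where 47.4% of genes were called, 25.6% higher and 21.8% lower. In tKO against dKO, 2 were called higher (Sgpl1, Sphk2) and 2 lower (S1pr1, Cerk), where 29.5% of genes were called, 14.3% higher and 15.2% lower. These comparisons share libraries, so their values are not independent. In CPM, the libraries of the compared groups did not overlap for 5 of the 9 genes in dKO against WT, 7 in tKO against WT and 4 in tKO against dKO, which held for 51.9%, 53.4% and 39.8% of all genes. The median absolute log2 fold change of the 9 was 0.31 in dKO and 0.35 in tKO against WT, where that of all genes was 0.19 and 0.21. Between tKO and dKO it was 0.20 for the 9 and 0.14 for all genes.

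The spread between hepatocyte libraries was small, with a biological coefficient of variation of 3.52%, against 20.3% in liver. The chi-square per gene between 2 libraries of a group was 1.56 to 2.76 in hepatocytes and 23.9 to 185 in liver. The liver libraries were deeper and this value grows with depth, so the 2 ranges are not on the same scale. The hepatocyte p-values rest on the small scatter between hepatocyte libraries, and whether it reflects the scatter between mice was not tested. A further fit gave every hepatocyte gene the liver's common dispersion and used a likelihood ratio test in place of the quasi-likelihood test. It called 1 of 9 in each hepatocyte comparison, Cerk in dKO and in tKO against WT and S1pr1 in tKO against dKO. Of all genes it called 9.20% in dKO and 10.6% in tKO against WT, and 2.84% between tKO and dKO. The change of spread was not separated from the change of test.

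**Figure D2:**
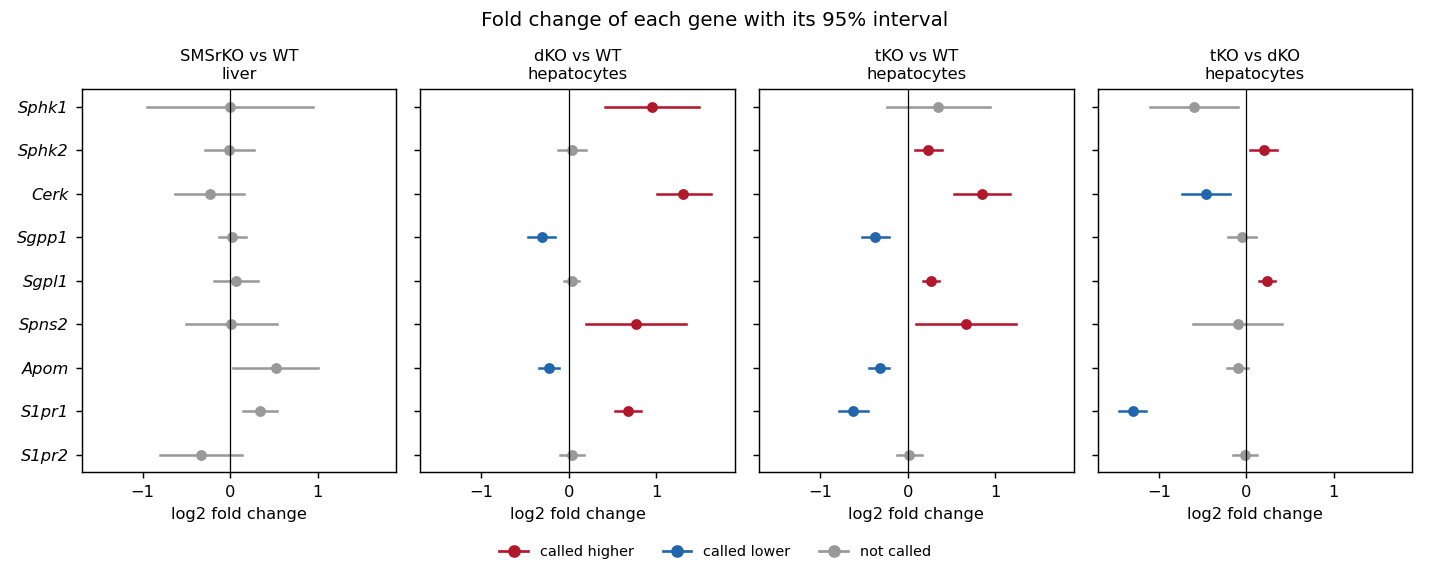
Log2 fold change of each of the 9 genes (points) with its 95% interval (lines) in the 4 comparisons; a positive value is higher in the group named before "vs". In liver no gene was called, S1pr1 is on opposite sides of 0 in dKO and tKO against WT, and Cerk is above 0 in both.

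Ceramide kinase, encoded by Cerk (chr15:86139128-86186141, minus strand, GRCm38), had the largest fold change of the 9 against WT hepatocytes in both knockout groups. Its libraries had 2.08, 2.01 and 1.86 FPKM in tKO, 2.70, 2.65 and 2.72 FPKM in dKO, and 1.18, 1.02 and 1.03 FPKM in WT. The 3 groups did not overlap, with dKO highest, tKO between and WT lowest. The log2 fold change was 1.31 ± 0.153 (SE) in dKO against WT (edgeR adjusted p = 1.09e-11), 0.85 ± 0.161 in tKO against WT (6.37e-06) and -0.46 ± 0.136 in tKO against dKO (0.00563). Of these, the difference between tKO and dKO was not called by DESeq2 (adjusted p = 0.0510). The counts behind them were 81 to 90 in tKO, 112 to 114 in dKO and 43 to 49 in WT libraries.

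In liver, Cerk had 5.42, 5.15, 4.38 and 8.56 TPM in SMSrKO and 6.14, 7.37, 6.60 and 8.59 TPM in WT. The groups overlapped, since SMSrKO replicate 8 lay near the highest WT library, and the log2 fold change of -0.23 had a 95% interval of -0.63 to 0.16 (edgeR adjusted p = 0.605).

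Across the 9 hepatocyte libraries, the 3 genes whose log2 CPM, centred on each gene's mean, lay nearest to that of Cerk were Socs1, an inhibitor of cytokine signalling, Ptges, a prostaglandin E synthase, and Eif4e3, a relative of the cap-binding translation factor. Their root mean square differences from Cerk were 0.0976, 0.103 and 0.104 log2 units among 9288 genes searched. Socs1 averaged 7.14, 9.94 and 3.95 CPM in tKO, dKO and WT, beside 8.82, 12.2 and 4.89 CPM for Cerk. The search covered Cerk alone, since it was the only one of the 9 called at a log2 fold change of at least 1 against WT.

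The sphingosine kinases differed in level and in how they moved. Sphk1 (chr11:116530925-116536674, plus strand), the kinase that is induced by growth factors and cytokines in many cells, had 1.05, 1.68 and 1.99 FPKM in tKO, 2.32, 2.90 and 1.61 FPKM in dKO, and 0.96, 0.88 and 1.76 FPKM in WT hepatocytes. The groups overlapped, with dKO replicate 6 below WT replicate 3. In dKO against WT the log2 fold change was 0.95 ± 0.272 (edgeR adjusted p = 0.00279), and without dKO replicate 5 it was 0.69 and not called (0.0669). In tKO against WT it was 0.35, with a 95% interval of -0.23 to 0.94 (0.335), and in tKO against dKO it was -0.60, with an interval of -1.10 to -0.09 (0.0696). Without dKO replicate 6 the difference between tKO and dKO was called (-0.82, 0.0137). These values rest on 18 to 29 counts per library in tKO, 23 to 47 in dKO and 14 to 26 in WT.

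In liver, Sphk1 was the lowest of the 9, at 0.169, 0.284, 0.523 and 0.403 TPM in SMSrKO and 0.114, 0.494, 0.306 and 0.573 TPM in WT. With 9 to 35 counts in SMSrKO and 12 to 39 in WT libraries, the 95% interval of its log2 fold change ran from -0.95 to 0.95.

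Sphk2 (chr7:45709467-45718002, minus strand), the isoform also found in the nucleus and mitochondria, made up most of the kinase transcripts. The share of Sphk1 in the sum of both was 0.478% to 1.44% in SMSrKO and 0.403% to 1.75% in WT liver, and 9.83% to 15.2%, 15.1% to 26.1% and 9.30% to 17.6% in tKO, dKO and WT hepatocytes. The lengths used for Sphk1 and Sphk2 were 4774 and 4159 bases in liver, and 1580 to 1846 and 3551 to 3584 bases in hepatocytes. The longer Sphk1 in liver lowers its share there, so the shares of the 2 experiments are not on the same scale. Sphk2 had 9.63, 10.3 and 11.1 FPKM in tKO, 9.34, 8.19 and 9.05 FPKM in dKO, and 9, 8.58 and 8.24 FPKM in WT hepatocytes. The tKO libraries all lay above the other 6, by a small margin. The log2 fold change was 0.23 ± 0.0793 in tKO against WT (edgeR adjusted p = 0.0110) and 0.20 ± 0.0788 in tKO against dKO (0.0481), while in dKO against WT it was 0.04 with a 95% interval of -0.13 to 0.20 (0.755). DESeq2 called neither tKO difference (adjusted p = 0.0682 and 0.187). Leaving out WT replicate 3 or tKO replicate 9 also ended the call against WT (adjusted p = 0.0631 and 0.0868), and 7 of the 9 fits that left out a library ended the call against dKO.

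In liver, Sphk2 had 35.2, 26.6, 35.9 and 27.5 TPM in SMSrKO and 28.2, 37.2, 33.8 and 32.2 TPM in WT, with overlapping groups and a log2 fold change of -0.01 (95% interval -0.29 to 0.27). Sphk2 shares 13% of its exon bases with the clock output gene Dbp and 8.97% with the ribosomal protein gene Rpl18, on the opposite strand. The labels do not give the strand setting of the counts, so reads from these bases cannot be assigned with certainty. Dbp averaged 116 ± 5.07 TPM in SMSrKO and 77.2 ± 17.3 TPM in WT liver (n = 4 each). This difference was not called (log2 fold change 0.66, edgeR adjusted p = 0.0964). The log2 fold change of Dbp was 0.31 in tKO and 0.39 in dKO against WT hepatocytes (edgeR adjusted p = 0.00838 and 0.000958). Rpl18 averaged 457, 484 and 471 FPKM in tKO, dKO and WT hepatocytes, far above Sphk2. Rpl18 was not called against WT (edgeR adjusted p = 0.192 in tKO and 0.558 in dKO), between tKO and dKO (0.0644) or in liver (0.515). The part of the Dbp and Rpl18 reads in the Sphk2 counts was not tested.

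The enzymes that remove sphingosine 1-phosphate moved in opposite directions in tKO hepatocytes. Sgpl1 (chr10:61098642-61147703, minus strand), the lyase that cleaves it irreversibly, had 66.4, 59.7 and 62.1 FPKM in tKO, 54.9, 48.8 and 53.0 FPKM in dKO, and 51.1, 50.2 and 51.3 FPKM in WT. The tKO libraries lay above all others, while dKO and WT overlapped. Its log2 fold change was 0.27 ± 0.0446 in tKO against WT (edgeR adjusted p = 2.79e-07) and 0.24 ± 0.0445 in tKO against dKO (7.87e-06). In dKO against WT it was 0.03, with a 95% interval of -0.06 to 0.12 (0.631).

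Sgpp1 (chr12:75714248-75735729, minus strand), the phosphatase that returns sphingosine 1-phosphate to sphingosine, had 11, 10.1 and 9.94 FPKM in tKO, 10.4, 10.1 and 11.2 FPKM in dKO, and 14.3, 13.4 and 11.5 FPKM in WT hepatocytes. Each tKO and dKO library lay below each WT library, with WT replicate 3 closest to them. Sgpp1 fell by 0.37 ± 0.0776 on the log2 scale in tKO (edgeR adjusted p = 4.72e-05) and by 0.31 ± 0.0777 in dKO (0.000526) against WT. Between tKO and dKO the log2 fold change was -0.05, with a 95% interval of -0.21 to 0.11.

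In liver neither enzyme differed beyond the spread. Sgpl1 had 25.6, 33.9, 30.3 and 38.2 TPM in SMSrKO and 28.2, 31.5, 35.1 and 31.6 TPM in WT, and Sgpp1 had 41.3, 47.8, 44.3 and 47.2 TPM in SMSrKO and 45.4, 47.6, 44.4 and 46.9 TPM in WT. The groups overlapped for both genes. The 95% intervals of the log2 fold change were -0.18 to 0.32 for Sgpl1 and -0.13 to 0.18 for Sgpp1.

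Spns2 (chr11:72451638-72489904, minus strand), a transporter that exports sphingosine 1-phosphate from endothelial cells, was the lowest of the 9 in hepatocytes. It had 0.74, 1 and 1.02 FPKM in tKO, 0.94, 0.93 and 1.04 FPKM in dKO, and 0.50, 0.64 and 0.53 FPKM in WT, from 13 to 28 counts per library. Each knockout library lay above each WT library. Its log2 fold change was 0.67 ± 0.286 in tKO (edgeR adjusted p = 0.0454) and 0.77 ± 0.285 in dKO (0.0217) against WT. Neither was called by DESeq2 (adjusted p = 0.166 and 0.107), and leaving out 1 library at a time ended the call in 4 of 9 fits for tKO (without WT replicate 1 or 3 or tKO replicate 8 or 9, 0.117 to 0.136) and in 3 of 9 for dKO (without WT replicate 1 or 3 or dKO replicate 6, 0.0682 to 0.0820). In liver it had 26.1, 21.8, 24.2 and 14.9 TPM in SMSrKO and 29.0, 20.5, 21.5 and 18.2 TPM in WT, which overlapped (log2 fold change 0.01, 95% interval -0.51 to 0.53). Spns2 shares 3.21% of its exon bases with Mybbp1a on the opposite strand, which averaged 22.7 ± 2.03 TPM in SMSrKO and 28.8 ± 5.84 TPM in WT liver (n = 4 each). In hepatocytes Mybbp1a averaged 108 ± 6.11, 108 ± 3.06 and 112 ± 2 FPKM in tKO, dKO and WT (n = 3 each), far above Spns2. Mybbp1a was not called against WT (edgeR adjusted p = 0.0512 in tKO and 0.193 in dKO). The part of its reads in the Spns2 counts was not tested.

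Apom (chr17:35128997-35132050, minus strand), which encodes the plasma carrier, was lower in both knockout hepatocyte groups. It had 105, 113 and 101 FPKM in tKO, 104, 116 and 115 FPKM in dKO, and 128, 135 and 127 FPKM in WT. All 6 knockout libraries lay below all 3 WT libraries, and tKO and dKO overlapped. Apom fell by 0.32 ± 0.0587 on the log2 scale in tKO (edgeR adjusted p = 2.8e-06) and by 0.23 ± 0.0585 in dKO (0.000898) against WT. Beside it, the 10 hepatocyte genes, which include Alb and Fgb, summed to 51800 to 54500 CPM in tKO, 59100 to 60500 CPM in dKO and 68300 to 69600 CPM in WT. Most of the sum came from Alb (37600, 41700 and 48700 CPM in tKO, dKO and WT). Against WT, 5 of the 10 were called lower and 2 higher in each knockout group. Of all genes, 21.8% were called lower and 25.6% higher in tKO, and 20.0% lower and 24.0% higher in dKO. The part of the hepatocyte genes in the Apom values was not tested. In bulk samples fewer cells of a type and less RNA per cell cannot be told apart.

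In liver, Apom lay the other way, without being called. It had 278, 259, 318 and 305 TPM in SMSrKO and 306, 202, 166 and 158 TPM in WT. The groups overlapped only through WT replicate 1, the library that stood apart. The log2 fold change was 0.52 ± 0.215 (unadjusted p = 0.0384 and adjusted p = 0.353 by edgeR's quasi-likelihood test), and without WT replicate 1 it was 0.81 ± 0.101 and called (adjusted p = 0.0117). The summed hepatocyte genes given above were also higher in each SMSrKO library than in each WT library. Most of that sum came from Alb, which averaged 58700 CPM in SMSrKO and 43000 CPM in WT. Of the 10 hepatocyte genes 0 were called, where 0.234% of all genes were called. The part of the hepatocyte genes in the Apom values was not tested.

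S1pr1 (chr3:115710433-115715072, minus strand), the receptor by which endothelial cells and lymphocytes respond to sphingosine 1-phosphate, was the one of the 9 that was called in opposite directions in the 2 knockout hepatocyte groups. It had 7.53, 7.16 and 7.23 FPKM in tKO, 18.7, 16.0 and 18.6 FPKM in dKO, and 10.9, 10.8 and 11.4 FPKM in WT. The 3 groups did not overlap, with dKO highest and tKO lowest. The log2 fold change was 0.68 ± 0.0738 in dKO against WT (edgeR adjusted p = 6.75e-13) and -0.62 ± 0.0852 in tKO against WT (1.77e-09). In tKO against dKO it was -1.30 ± 0.0788 (5.04e-25). All 3 calls held in each of the 9 fits that left out a library.

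The 15 endothelial genes, from Pecam1 and Cdh5 to Vwf, summed to 117, 117 and 122 CPM in tKO, 225, 219 and 207 CPM in dKO, and 36.6, 37.9 and 36.6 CPM in WT hepatocytes. Cdh5, the endothelial cadherin gene, averaged 31.9 ± 0.947 CPM in tKO, 58.0 ± 3.78 CPM in dKO and 6.30 ± 0.897 CPM in WT (n = 3 each). S1pr1 had 22.2, 21.0 and 21.0 CPM in tKO, 55.5, 47.9 and 55.2 CPM in dKO, and 32.8, 32.3 and 33.9 CPM in WT. The order of the groups from high to low was dKO, tKO and WT for the sum, and dKO, WT and tKO for S1pr1. The ratio of S1pr1 to the endothelial sum, which does not hold S1pr1, was 18.9%, 17.9% and 17.3% in tKO, 24.7%, 21.9% and 26.7% in dKO, and 89.5%, 85.2% and 92.6% in WT. Macrophage genes (12 symbols) summed to 364 to 383 CPM in tKO, 326 to 343 CPM in dKO and 122 to 137 CPM in WT, and stellate or fibroblast genes (10 symbols) to 33.4 to 37.3, 55.3 to 61.1 and 15.9 to 20 CPM. Most of the macrophage sum came from Cd68 (247, 201 and 100 CPM in tKO, dKO and WT) and Mpeg1 (116, 122 and 28 CPM). In tKO against dKO, 1 of 6 macrophage genes tested was called higher and 2 lower, where 14.3% of all genes were called higher and 15.2% lower. Reln made up most of the stellate sum in WT (16.3, 18.4 and 17.5 CPM), while Dcn averaged 15.4, 29 and 0.434 CPM. Bile duct genes (4 symbols) summed to 160 to 168 CPM in tKO, 198 to 217 CPM in dKO and 71.2 to 88.4 CPM in WT, nearly all of it from Sox9, which averaged 163, 206 and 77.6 CPM. Epcam of the same list averaged 0.719 CPM in tKO, 1.04 CPM in dKO and 1.12 CPM in WT (n = 3 each). Of the 4, 2 passed the filter and 1 was called higher in each knockout group, where 25.6% of all genes were called higher in tKO and 24.0% in dKO. In WT hepatocytes 14 of the 15 endothelial genes had a value above 0. The part of these cells in the values of S1pr1, Spns2, Sphk1 and Cerk was not tested.

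**Figure D3:**
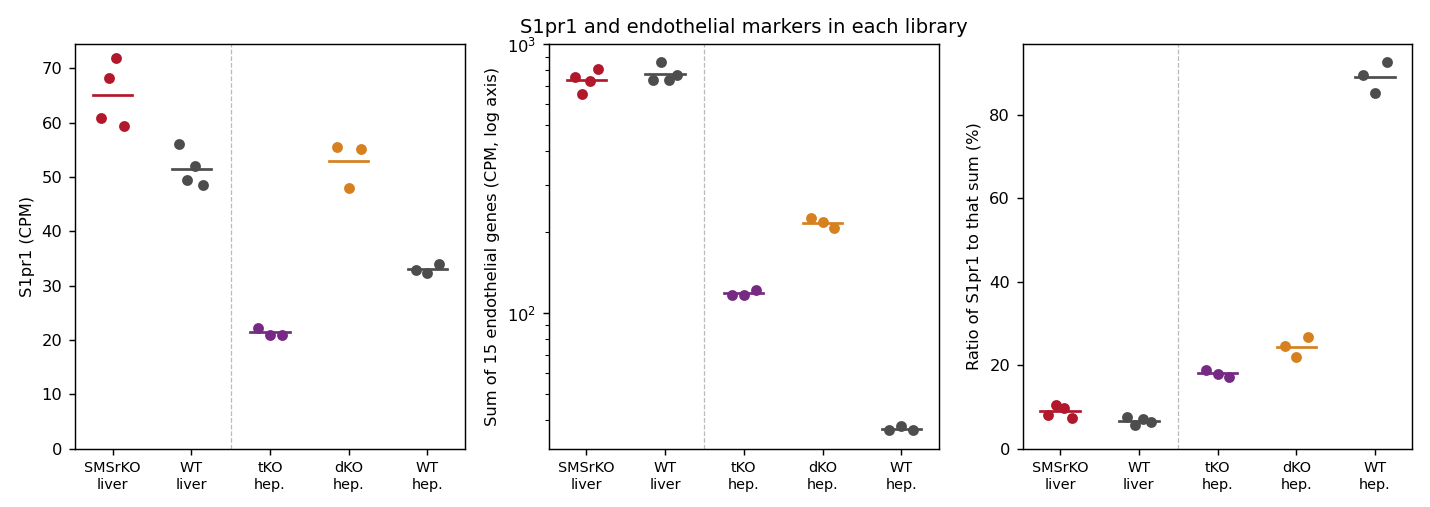
S1pr1 in CPM (left), the summed CPM of 15 endothelial genes on a log axis (middle) and the ratio of S1pr1 to that sum in percent (right) in each library; points are libraries and bars are group means. In hepatocytes the endothelial sum is lowest in WT, where the ratio is 85.2% to 92.6%, and S1pr1 itself is lowest in tKO.

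In liver, S1pr1 had 41.3, 47.5, 51.5 and 44.5 TPM in SMSrKO and 38.7, 38.5, 36.9 and 37.1 TPM in WT. Each SMSrKO library lay above each WT library, and the CPM of the groups did not overlap, in either direction, for 8.11% of the genes tested. The log2 fold change was 0.34 ± 0.0865, with an unadjusted p of 0.00283 and an adjusted p of 0.154 by edgeR's quasi-likelihood test, while DESeq2 gave an adjusted p of 0.0424. Leaving out 1 library at a time gave adjusted p-values of 0.0771 to 0.378 in edgeR. None of the 15 endothelial genes was called by edgeR (median log2 fold change -0.06), where 0.234% of all genes were called. The ratio of S1pr1 to the endothelial sum was 8.03%, 10.4%, 9.87% and 7.37% in SMSrKO and 7.63%, 5.77%, 7.07% and 6.32% in WT, which overlapped.

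S1pr2 (chr9:20962361-20976781, minus strand) stayed within a narrow range in hepatocytes. It had 16.3, 17.6 and 18.9 FPKM in tKO, 16.9, 18.4 and 17.2 FPKM in dKO, and 16.2, 16.8 and 18.1 FPKM in WT, and the 3 groups overlapped. The 95% intervals of its log2 fold change were -0.12 to 0.16 in tKO against WT, -0.10 to 0.17 in dKO against WT and -0.15 to 0.12 in tKO against dKO, the narrowest after those of Sgpl1 and Apom. In liver it had 2.28, 2.18, 2.80 and 3.42 TPM in SMSrKO and 2.04, 4.52, 3.27 and 4.23 TPM in WT. The groups overlapped, with the lowest value in WT replicate 1, and the log2 fold change of -0.33 had an interval of -0.80 to 0.14.

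Promoter sequence was available from RefSeq (GRCm38.p6) for 8 of the 9 genes. Those of Cerk, Apom and Sgpl1 are shown because Cerk had the largest fold change against WT, Apom was lower in both knockout hepatocyte groups and Sgpl1 was higher in tKO than in dKO and in WT. Each is the 250 bases before the start that RefSeq annotates, on the minus strand, at chr15:86186142-86186391 for Cerk, chr17:35131802-35132051 for Apom and chr10:61147685-61147934 for Sgpl1, and capitals mark matches to the motifs named after them. The RefSeq start is that of the gene as given above for Cerk, but lies 249 bases inside it for Apom and 19 bases inside it for Sgpl1.
Cerk: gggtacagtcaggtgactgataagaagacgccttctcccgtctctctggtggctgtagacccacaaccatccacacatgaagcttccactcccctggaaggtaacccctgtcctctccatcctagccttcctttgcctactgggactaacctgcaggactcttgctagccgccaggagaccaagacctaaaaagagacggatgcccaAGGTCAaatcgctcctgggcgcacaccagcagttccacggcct
Apom: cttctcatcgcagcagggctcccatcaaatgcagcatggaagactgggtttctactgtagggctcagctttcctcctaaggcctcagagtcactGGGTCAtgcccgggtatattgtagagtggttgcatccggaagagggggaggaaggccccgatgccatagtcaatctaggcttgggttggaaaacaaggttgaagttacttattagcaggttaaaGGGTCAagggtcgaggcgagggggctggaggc
Sgpl1: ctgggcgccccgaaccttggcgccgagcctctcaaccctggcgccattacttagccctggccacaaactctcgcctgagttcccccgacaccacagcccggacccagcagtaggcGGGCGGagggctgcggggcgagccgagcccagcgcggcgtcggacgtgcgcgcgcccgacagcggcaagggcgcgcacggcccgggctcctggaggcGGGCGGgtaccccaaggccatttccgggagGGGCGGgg

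On both strands 9 motifs were searched: the TATA box TATAAA, the CCAAT box, the GC box GGGCGG, TTCNNNGAA of STAT factors, the interferon element ISRE, CAAAGT as part of the HNF4 site, the nuclear receptor hexamers (GGGTCA as well as AGGTCA) and the AP-1 site TGANTCA. The hexamers were added after the Apom sequence had been read. Sgpl1 held 3 GC boxes, and 32.7% of 32817 promoters held at least 1. Apom held GGGTCA at 2 places, starting 156 and 32 bases before the RefSeq start, a motif found in 11.6% of promoters, and Cerk held AGGTCA, found in 14.0%. The hexamers were not particular to Apom and Cerk. Sgpp1 also held GGGTCA, and S1pr2, Spns2 and some promoters of Sphk1 held AGGTCA. Sphk2 and Sgpl1 held neither hexamer, and Sphk2 also held GC boxes. A match is a description of letters and not of a bound site.

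**Figure D4:**
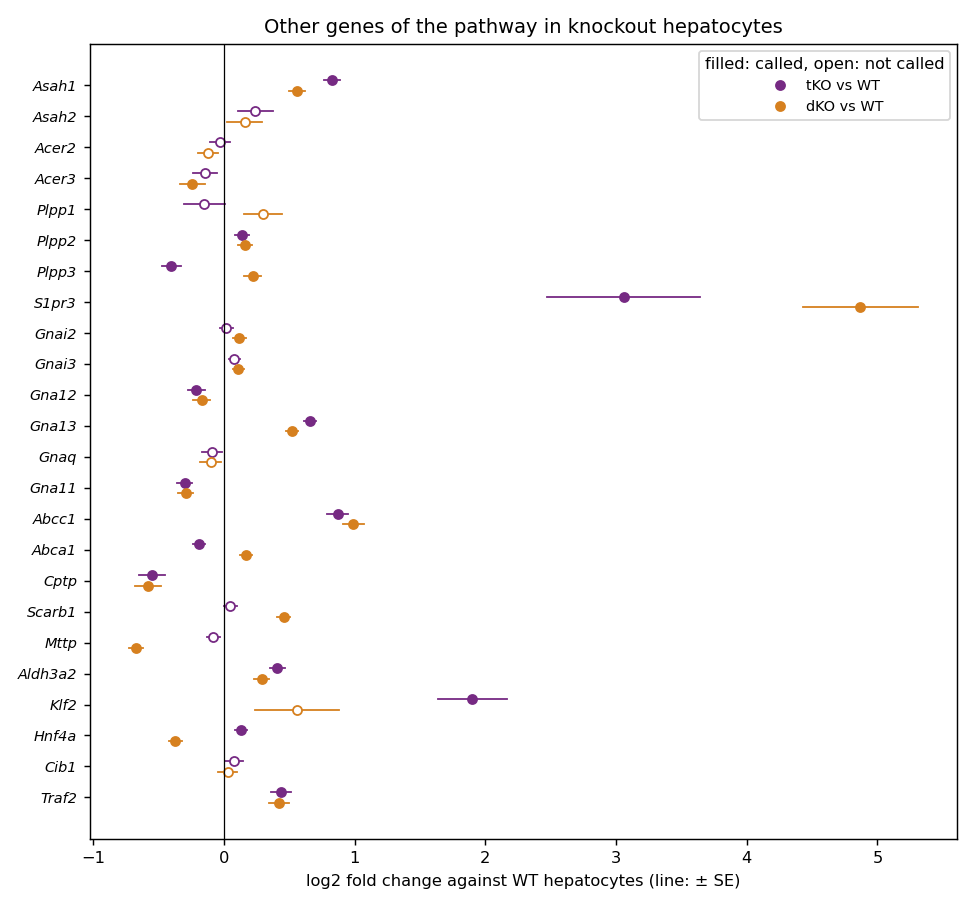
Log2 fold change of 24 other genes of the pathway in tKO (purple) and dKO (orange) against WT hepatocytes; lines are ± SE, filled points were called and open points were not. S1pr3 lies farthest above 0 in both groups, and the filled points of Plpp3, Abca1 and Hnf4a lie on opposite sides of 0 in tKO and dKO.

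The surrounding pathway was described with 33 further genes for ceramidases, lipid phosphatases, other receptors, G proteins, transporters and regulators. Of these 24 passed the filter in hepatocytes, with 9 called higher and 5 lower in tKO, and 12 higher and 6 lower in dKO, against WT, where 47.4% and 44.0% of all genes were called. The median log2 fold change of the 24 was 0.07 in tKO and 0.16 in dKO, against -0.00 and -0.01 over all genes. In tKO against dKO 5 were called higher and 5 lower, where 29.5% of all genes were called (median 0.01, against 0.00). In liver 0 of 31 were called by edgeR, DESeq2 or limma, which called 0.234%, 2.42% and 0.190% of all genes. The genes with the smallest p there were the alkaline ceramidase gene Acer3 (log2 fold change -0.25), the lipid phosphatase gene Plpp3 (0.46) and the signalling adaptor gene Traf2 (-0.21), with edgeR adjusted p-values of 0.281, 0.346 and 0.38.

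S1pr3, another receptor of sphingosine 1-phosphate, which stellate and endothelial cells express, showed the largest fold change of the list in hepatocytes. It had 13, 10 and 15 counts in tKO, 48, 40 and 41 in dKO, and 2, 0 and 2 in WT. No library of one group reached the values of another. The fitted log2 fold change was 3.06 ± 0.585 in tKO (edgeR adjusted p = 7.5e-06) and 4.87 ± 0.440 in dKO (2.82e-16) against WT, sizes that depend on the few WT counts in a gene that passed the filter through the knockout libraries, and -1.81 ± 0.275 in tKO against dKO (8.53e-08). The endothelial and stellate sums given above followed the same order of groups, and their part in the S1pr3 values was not tested. In liver S1pr3 averaged 2.21 ± 0.462 TPM in SMSrKO and 2.07 ± 0.802 TPM in WT (n = 4 each).

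Enzymes and carriers upstream and downstream were called in both knockout groups. Asah1, the lysosomal ceramidase that releases sphingosine, was higher in tKO (log2 fold change 0.83 ± 0.06, edgeR adjusted p = 3.98e-21) and in dKO (0.56 ± 0.0617, 1.09e-12). Abcc1, a transporter that can export sphingosine 1-phosphate, averaged 42.9 ± 1.37 CPM in tKO, 46.9 ± 1.28 CPM in dKO and 23.5 ± 2.83 CPM in WT (n = 3 each). Cptp, which moves ceramide 1-phosphate between membranes, averaged 17.0 ± 0.0850 CPM in tKO, 16.6 ± 0.802 CPM in dKO and 24.8 ± 2.79 CPM in WT. Abcc1 was called higher and Cptp lower in both groups. Gna13, a G protein subunit through which the receptor of S1pr2 signals, was also higher in tKO (0.66 ± 0.0469, 1.88e-21) and in dKO (0.52 ± 0.0474, 3.01e-16). Gna12, the gene of its partner subunit, was lower in tKO (-0.21 ± 0.0658, 0.00481) and in dKO (-0.17 ± 0.0659, 0.0249), as was Gna11, the gene of another G protein subunit (-0.30 and -0.29, edgeR adjusted p = 6.54e-06 and 2.25e-05).

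Several genes of the list parted the knockout groups. Klf2, a transcription factor gene and a regulator of S1pr1 in T cells of mice, averaged 5.17 ± 0.682 CPM in tKO, 2.04 ± 0.679 CPM in dKO and 1.37 ± 0.430 CPM in WT (n = 3 each), and was higher in tKO than in dKO (log2 fold change 1.34 ± 0.242, edgeR adjusted p = 5.41e-06). Mttp, which loads lipid onto lipoproteins, averaged 121 ± 5.02 CPM in tKO, 80.6 ± 2.75 CPM in dKO and 129 ± 9.31 CPM in WT, and Hnf4a, a hepatocyte transcription factor gene, averaged 173 ± 10.1, 122 ± 1.76 and 158 ± 1.03 CPM. Both were lower in dKO than in tKO and in WT. Plpp3 and Plpp1, lipid phosphatases of the plasma membrane, were lower in tKO than in dKO by -0.63 ± 0.0682 and -0.44 ± 0.15 on the log2 scale (edgeR adjusted p = 1.58e-12 and 0.0179).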

How the data were processed

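RNA was measured in 8 liver and 9 hepatocyte libraries, grouped by the labels. The deposited liver files hold whole-number counts per Ensembl gene with coordinates, per the file headers, which for 8 of the 9 genes equal those of GENCODE M21 on GRCm38, and the authors also deposited a TPM table, which counts and lengths gave again within 5e-05. The deposited hepatocyte files hold expected counts and FPKM per Entrez gene, and 6.25% of the listed expected counts were not whole, so they were rounded. A gene missing from a hepatocyte file was given a count of 0. Per the submitters' processing notes, the tools were Bowtie2 2.2.5, STAR 2.5.2b, Trimmomatic 0.36 and DESeq2 1.30.1, with the builds GRCm38 and mm10, while the counting tool and strand setting were not given in the sources used here.

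Counts were filtered with filterByExpr (minimum count 10), then scaled by TMM, and edgeR's robust quasi-likelihood test was run in edgeR 4.0.16 (R 4.3.3), with 1 fit per experiment, with p-values adjusted by Benjamini and Hochberg over all genes tested and a threshold of 0.05. SE is the size of the log2 fold change over the root of its F statistic, and 95% intervals use the fit's degrees of freedom. CPM uses TMM-scaled library totals. Alternatives were DESeq2 1.42.0, limma 3.58.1 on log2(value + 0.1), library totals, no filter, the liver's spread in hepatocytes, 2-group fits and leaving out each library. The liver's spread was a common dispersion for all genes, with a likelihood ratio test. Figures used Python 3.11.15 with matplotlib 3.10.9.

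Named were the 9 genes, the targeted genes, up to 6 called genes of the pathway list per comparison with the largest fold change (where fewer than 3 were called, the 3 with the smallest p), the 3 genes nearest in pattern to a member called at a log2 fold change of at least 1 against WT, and marker genes. Abca1, Gna11 and Gna12 were named after their values were seen, and 1 gene of the pathway list is not reported here. The members and lists were chosen with earlier results of these data known.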

Additional observations from a re-analysis of the deposited data

Results flagged for a closer look

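In WT liver, Sgpl1 had 99.7 CPM in replicate 3, while the other 3 WT libraries lay between 81.3 and 83.3 CPM. The gap from replicate 3 to its nearest neighbour was 0.891 of the range of the group, above Dixon's 95% critical value for 4 samples. In SMSrKO liver Sgpl1 ran from 76.1 to 103 CPM, so that library lay inside the range of the other group. This was the single value so marked among 18 pairs of a gene and a liver group, and chance marks about 1 in 20 such groups.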

How the results depend on the processing

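Of the log2 fold changes of the 9 genes under other settings, 163 kept direction and call, 23 lost the call, 1 gained it and 11 changed sign, all of the last near 0. In liver, Sphk1 gave -0.01 with DESeq2, -0.08 with library totals, -0.03 with limma and -0.01 without a filter. Sgpp1 gave -0.05 with library totals and -0.03 with limma, and Spns2 -0.06, -0.04 and, without a filter, -0.00. S1pr2 in tKO against dKO gave 0.01 with library totals and with limma. When 1 library was left out, 273 were as before, 17 lost the call, 2 gained it and 23 changed sign. In liver these fits gave -0.32 to 0.29 for Sphk1, -0.10 to 0.07 for Sphk2, -0.00 to 0.14 for Sgpl1, -0.01 to 0.04 for Sgpp1 and -0.11 to 0.20 for Spns2. In dKO against WT they gave -0.01 to 0.07 for Sgpl1 and -0.01 to 0.08 for S1pr2, and S1pr2 ran from -0.03 to 0.06 in tKO against WT and -0.06 to 0.03 in tKO against dKO, where Spns2 ran from -0.16 to 0.02. Genes called in liver numbered 451 with DESeq2, 136 without a filter and 11 to 109 when 1 library was left out (109 without WT replicate 1), beside 37. Of the 9, DESeq2 called 1 in liver, where it called 451 of 18642 genes, and the fits without 1 library 0 to 1. The 1 was Apom without WT replicate 1, where 109 of 15988 genes were called. With the liver's spread, 1055, 1221 and 326 of 11471 genes and 1, 1 and 1 of the 9 were called in dKO against WT, in tKO against WT and in tKO against dKO. DESeq2 called 2 of the 9 between tKO and dKO, where it called 2303 of 12284 genes. The cause of these changes was not tested, apart from the fewer libraries, or the larger spread and other test, that the setting itself brings. Low counts limit Sphk1 in both experiments and Spns2 in hepatocytes. No paired analysis was possible because the groups compared share no replicate numbers: liver libraries run from 1 to 4 in WT and 5 to 8 in SMSrKO, and hepatocyte libraries from 1 to 3, 4 to 6 and 7 to 9.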
